A study of Mus musculus with 12 samples.

Results

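Ribosomal protein genes of the cytosol and of mitochondria were followed in mouse liver across feeding state and genotype. Members were taken by gene symbol, as symbols that begin with Rpl or Rps and a number, Rplp0 to Rplp2 and Rpsa for the cytosolic set, and Mrpl or Mrps and a number for the mitochondrial set. S6 kinase symbols and pseudogene symbols were left out, and each gene was read by its brightest probe set that lists a single symbol. This gave 126 of 18194 measured genes, 50 in the cytosolic set and 76 in the mitochondrial set. By symbol, 26 and 24 of the cytosolic genes belong to the large and the small subunit, and 47 and 29 of the mitochondrial ones. The cytosolic symbols include 7 that are not standard subunits, namely the paralogues Rpl22l1, Rpl39l, Rpl3l, Rpl7l1 and Rps27l, the Rps19-binding protein Rps19bp1 and Rps4l, which leaves 43 core proteins.

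The arrays came from livers of SV129XC57Bl/6 mice in 4 groups: LG2KO refed, control refed, LG2KO fasted and control fasted. LG2KO is not spelled out in the labels and is read here as a knockout of Slc2a2, which encodes the glucose transporter Glut2, in the liver. LG2KO mice had received tamoxifen and no tamoxifen is recorded for controls, so genotype and tamoxifen cannot be told apart. Refed mice had been fasted beforehand. Neither the driver of the deletion nor the age and sex of the animals is given in the sources used here. For LG2KO fasted arrays the source entry also speaks of refeeding, but titles and diet entries say fasted, and these were followed. The series asks how glucose sensing by the liver supports the response of beta cells to glucose. There were 3 arrays per group, each with pooled RNA of 3 animals, so n = 3 pools throughout and p-values measure the spread between pools.

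Cytosolic ribosomes make nearly all proteins of a cell, and their protein genes are among its most highly transcribed ones. Many of these mRNAs start with a cytosine and a run of pyrimidines, the 5 prime terminal oligopyrimidine (TOP) motif, through which mTORC1 and Larp1 couple their translation to nutrients, so feeding can act on them without a change in mRNA level. Mitochondrial ribosomes are built from nuclear-encoded Mrp proteins and make the membrane-embedded core subunits of the respiratory chain, which the liver needs to oxidise fat during fasting and to provide ATP for synthesis after a meal.

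RefSeq promoter windows of assembly GRCm38.p6, which run from 250 bases before to 50 bases after each annotated start, were matched for 111 members, 44 cytosolic and 67 mitochondrial. A TOP start, defined here as C at the first transcribed base followed by at least 4 of C or T, was found in 8 of 44 cytosolic genes (18.2%), 0 of 67 mitochondrial genes and 3.01% of all 27025 genes with a window (2.67% of the protein-coding ones). The 8 were Rpl14, Rpl35, Rpl38, Rplp2, Rps10, Rps18, Rps27 and Rps6. An annotated start that is off by a base hides the motif, so no match says only that these letters are not at this position. The start regions of 7 of them are shown to set the motif beside mitochondrial genes that rose on refeeding. Each has 10 bases before and 20 bases from the start, and capitals mark the TOP motif.
Rps6 (chr4:86857348-86857377, minus strand): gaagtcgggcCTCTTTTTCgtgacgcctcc
Rpl35 (chr2:39005112-39005141, minus strand): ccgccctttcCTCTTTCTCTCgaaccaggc
Rps18 (chr17:33955646-33955675, minus strand): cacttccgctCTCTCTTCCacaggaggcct
Rps10 (chr17:27635225-27635254, minus strand): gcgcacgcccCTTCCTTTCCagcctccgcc
Rplp2 (chr7:141447641-141447670, plus strand): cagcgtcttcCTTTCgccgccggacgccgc
Rpl38 (chr11:114668570-114668599, plus strand): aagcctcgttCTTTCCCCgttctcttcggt
Rps27 (chr3:90213629-90213658, minus strand): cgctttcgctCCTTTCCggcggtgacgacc
Mrps27 (chr13:99344776-99344805, plus strand, no TOP start): cccgccttccacttggtgcgctccaagatg
Mrpl22 (chr11:58171654-58171683, plus strand, no TOP start): gtttgatcccggaggcttccgtagggctca
Mrps18b (chr17:35916421-35916450, minus strand, no TOP start): cggggcgtgtccttggcccaccctagtgcg
Mrps6 (chr16:92058326-92058355, plus strand, no TOP start): tcgccgtccgggagctgaccggccgtgttc

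The same windows were searched on both strands for motifs that are typical of housekeeping promoters. A gene with several windows was counted once, as a match if any of them held the motif. CCGGAAG, bound by ETS factors such as GABP, a known regulator of mitochondrial genes, was found for 47.7% of cytosolic genes, 37.3% of mitochondrial genes and 9.93% of all genes with a window (12.9% for protein-coding genes). The site of the nuclear respiratory factor NRF1, searched as its consensus, was in 13.6%, 17.9% and 5.19% of them (7.17% for protein-coding genes). AAGATGGC, the site of YY1, was in 9.09%, 17.9% and 3.19% (3.57%). GGGCGG, the SP1 site, was in 59.1%, 50.7% and 38.2% (49.2%), so the mitochondrial share was close to that of protein-coding genes. Among the mitochondrial genes with a window that rose on refeeding, the YY1 letters were found for 4 of 11 genes in LG2KO livers and 5 of 13 in control livers. The ETS letters were found for 7 of 11 and 6 of 13, the SP1 letters for 5 of 11 and 7 of 13, and the NRF1 letters for 1 of 11 and 0 of 13. Promoters of the 7 mitochondrial genes that rose in both genotypes are shown from 120 bases before the start to 30 bases from it, with matches to any of these motifs, on either strand, in capitals.
Mrps27 (chr13:99344666-99344815, plus strand, ETS then YY1): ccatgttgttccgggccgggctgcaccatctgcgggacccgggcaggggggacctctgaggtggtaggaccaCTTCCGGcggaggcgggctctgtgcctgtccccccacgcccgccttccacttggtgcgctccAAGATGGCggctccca
Mrps18a (chr17:46110884-46111033, plus strand, ETS then YY1): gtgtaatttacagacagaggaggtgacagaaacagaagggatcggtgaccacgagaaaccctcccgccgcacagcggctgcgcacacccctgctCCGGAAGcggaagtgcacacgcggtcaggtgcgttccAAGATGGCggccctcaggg
Mrpl22 (chr11:58171544-58171693, plus strand, ETS): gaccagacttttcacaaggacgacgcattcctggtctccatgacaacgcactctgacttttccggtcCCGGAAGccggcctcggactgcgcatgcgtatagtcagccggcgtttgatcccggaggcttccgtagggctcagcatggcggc
Mrps18b (chr17:35916411-35916560, minus strand, SP1): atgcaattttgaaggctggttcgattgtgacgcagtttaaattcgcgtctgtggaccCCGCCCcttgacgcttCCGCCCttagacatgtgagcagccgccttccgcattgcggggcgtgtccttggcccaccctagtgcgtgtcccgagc
Mrps6 (chr16:92058216-92058365, plus strand, SP1): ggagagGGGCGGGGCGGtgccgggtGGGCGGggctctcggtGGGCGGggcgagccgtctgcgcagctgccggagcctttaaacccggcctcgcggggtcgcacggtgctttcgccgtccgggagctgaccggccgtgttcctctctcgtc
Mrpl36 (chr13:73330889-73331038, plus strand, YY1): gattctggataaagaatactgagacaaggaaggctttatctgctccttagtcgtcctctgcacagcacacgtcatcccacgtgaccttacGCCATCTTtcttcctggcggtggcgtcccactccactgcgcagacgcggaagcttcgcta
Mrps25 (chr6:92183994-92184143, minus strand, none): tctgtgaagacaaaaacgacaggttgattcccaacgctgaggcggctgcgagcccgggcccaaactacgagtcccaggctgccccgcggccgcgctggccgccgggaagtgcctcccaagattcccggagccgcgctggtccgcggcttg
Mrps27 and Mrps18a hold the same arrangement, an ETS match upstream of the start and a YY1 match within the 30 bases after it, while Mrps18b and Mrps6 hold repeated SP1 letters in this stretch. Mrpl36 holds a YY1 match before the start, and Mrps25 none of these letters. A match is a description of the sequence and not a measured binding site.

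Genotype was checked on Slc2a2 first. The transcript was at 3.79, 3.64 and 3.80 on the log2 scale in LG2KO refed livers, against 10.67, 11.30 and 10.90 in control refed livers. In the fasted state it was at 4.02, 4.13 and 3.56 in LG2KO livers, against 10, 11.08 and 10.82 in control livers. All 6 LG2KO arrays lay far below all 6 control arrays (limma, adjusted p = 2.26e-08 refed and 5.21e-08 fasted). Hepatocyte markers averaged 13.56 to 13.88 on every array, with 13.56 to 13.67 in LG2KO refed against 13.68 to 13.82 in LG2KO fasted livers, which do not overlap. Endothelial markers averaged 7.54 to 7.69 in control refed against 7.76 to 7.80 in control fasted livers, also without overlap. A pair of arrays stood apart from their groups: control refed replicate 1 and LG2KO fasted replicate 3 correlated with an array of their own group at as little as 0.984, where pairs without them reached at least 0.994. Stellate cell and fibroblast markers were highest on the first, at 7.57, and lowest on the second, at 6.65. Exocrine pancreas markers averaged 7.74 on control fasted replicate 3, against 5.04 to 5.34 on the others, with 11 of 13 listed genes measured. Macrophage and Kupffer cell markers averaged 9.26 to 9.67 in LG2KO refed livers, 9.25 to 9.27 in control refed livers, 9.09 to 9.33 in LG2KO fasted livers and 9.15 to 9.70 in control fasted livers. The part of these differences in what follows was not tested, and in bulk liver fewer cells of a type and less RNA per cell cannot be told apart.

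Transcripts of cytosolic ribosomal proteins were among the brightest on the arrays. The 43 core genes had a median level of 12.63, which was at the 98.8 percentile of all genes, and 35 of them lay above the 95th percentile. Rps2, at the mRNA entry of the small subunit, was the brightest at 13.43 on average. The mitochondrial set had a median of 9.64, at the 89.6 percentile, and ran between 6.19 for Mrpl1 and 12.02 for Mrps34, a small subunit protein. Probe sets differ in how brightly they read a transcript, so a level places a gene among the others on the array and does not count molecules.

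**Figure D1:**
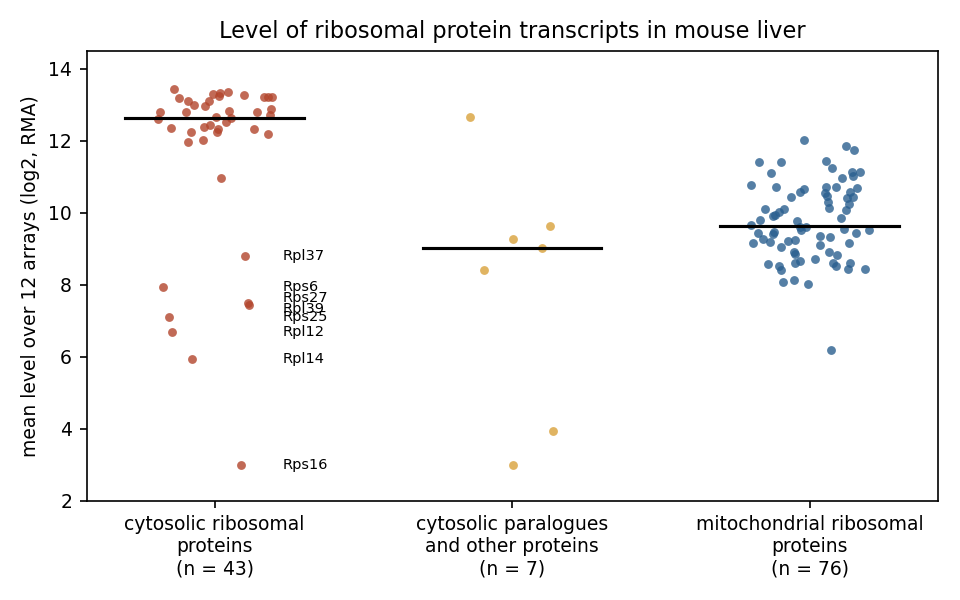
Mean RMA level on the log2 scale over 12 arrays for each gene (points), with the median of each class (bar). Most of the 43 core cytosolic genes crowd around their median of 12.63, with 8 dim exceptions that are named, while the 76 mitochondrial genes centre on 9.64.

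The 8 core genes below the 90th percentile were Rps16, Rpl14, Rpl12, Rps25, Rpl39, Rps27, Rps6 and Rpl37, with means between 2.99 and 8.79. Their single-symbol probe sets read far below those of the other subunits, although each ribosome carries all of these proteins. Many cytosolic symbols appear only on probe sets that list several symbols and are therefore not members: 110 such probe sets list 46 symbols of the cytosolic rule, of which 31 are not members. These had a median level of 12.08 and 79 of the 110 lay above the 95th percentile, so they looked like the bright core genes. The cytosolic set thus covers only part of the cytosolic ribosome.

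Paralogue pairs differed widely in level on their probe sets. Rpl22 averaged 12.38 in control refed livers and its paralogue Rpl22l1 8.88. Rpl3l, known from striated muscle, was at 2.80 to 3.06 in control refed livers, and Rpl39l, known from testis, at 3.78 to 4.06. Rps27l, a p53 target in human cells, was bright at 12.60 to 12.73 in control refed livers, where Rps27 read 7.33 to 7.56. No paralogue is set against its partner here as a number of molecules, since their probe sets differ.

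Most cytosolic genes varied little among the 12 arrays on their probe sets. The range from the lowest to the highest array had a median of 0.32 log2 units for the cytosolic set and 0.27 for its 36 genes above the 95th percentile, against 0.55 for the mitochondrial set, 0.60 for all genes and 0.59 for the 1747 other genes above the 90th percentile of level. A range below 0.5 was found for 70.0% of the cytosolic set, 35.5% of the mitochondrial set and 31.3% of all genes. The low variation was mainly that of bright probe sets, as 32 of the 36 genes above the 95th percentile had such a range. Whether probe sets this bright follow a change in mRNA in full was not tested. The 1747 other genes reach down to the 90th percentile and are no close match in level. A range of 1 or more was found for 5 cytosolic genes and none of those 36. The dim core genes Rpl14, Rps6 and Rpl12 had ranges of 1.2, 1.16 and 1.13. Rps20 was the steadiest cytosolic gene, with a range of 0.16, and Rplp0, the stalk protein often used as a reference transcript, lay between 13.12 and 13.43 on all arrays. The widest ranges belonged to Mrps22, at 2.28, Rpl22l1, at 1.99, and Mrpl1, at 1.87. Mrps22, a small subunit protein, read 8.74, 8.79 and 8.21 in LG2KO refed livers, 9.73, 8.76 and 8.72 in control refed livers, 8.40, 8.45 and 7.45 in LG2KO fasted livers and 8.24, 8.36 and 8.43 in control fasted livers. Its highest and its lowest value were those of control refed replicate 1 and LG2KO fasted replicate 3, the arrays that stood apart, as were those of Rpl22l1 at 9.52 and 7.53 and of Mrpl1 at 7.31 and 5.44.

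Refeeding raised a part of the mitochondrial ribosomal protein genes in both genotypes, while core cytosolic genes, with 1 exception in controls, did not pass the test. Summarised per array as the median deviation of its genes from their 12-array means, the mitochondrial set was at 0.036, 0.094 and 0.007 in LG2KO refed livers, against -0.047, -0.031 and -0.093 in LG2KO fasted livers. In controls it was at -0.032, 0.151 and 0.154 in refed livers, against -0.111, -0.119 and -0.055 in fasted livers. Refed and fasted arrays did not overlap in either genotype, and control refed replicate 1 lay nearest to the fasted arrays. The cytosolic set was at -0.014, 0.038 and -0.001 in LG2KO refed livers and at 0.028, -0.055 and -0.034 in LG2KO fasted livers, which overlap. Its values in controls were -0.035, 0.062 and 0.104 in refed livers and 0.001, -0.030 and -0.071 in fasted livers, which overlap through control refed replicate 1.

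**Figure D2:**
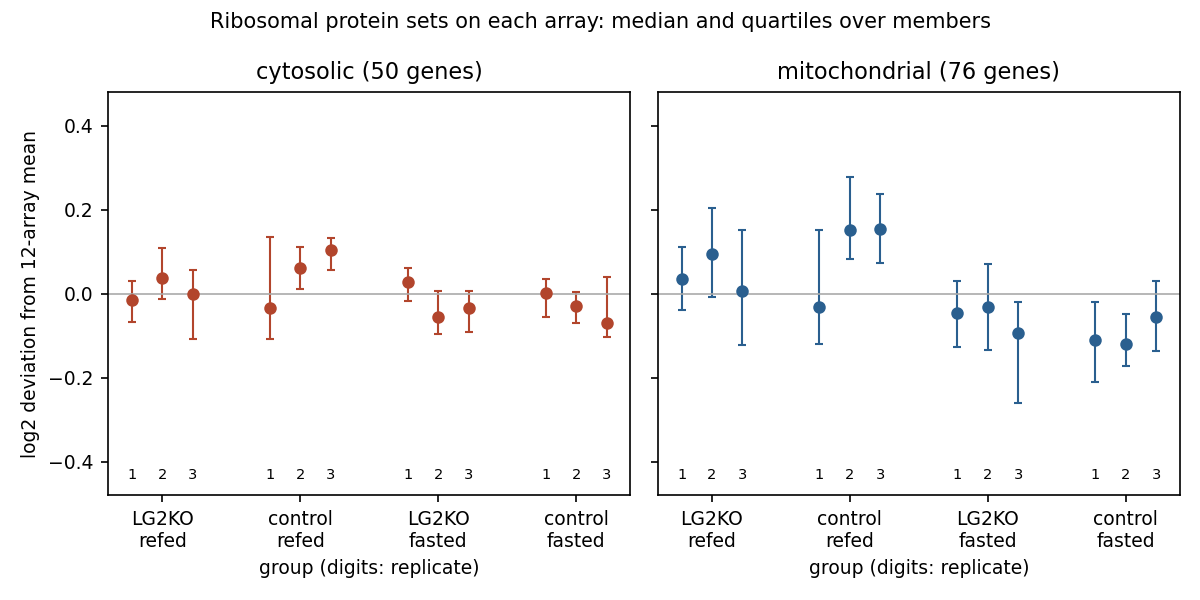
Median (points) and quartiles (bars) over the genes of each set of the log2 deviation from the 12-array mean, for every array of the 4 groups. The mitochondrial medians of refed arrays, -0.032 to 0.154, lie above those of fasted arrays, -0.119 to -0.031, within each genotype, whereas cytosolic medians stay between -0.071 and 0.104 and overlap.

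In LG2KO livers 14 of 76 mitochondrial genes passed limma's test on refeeding at an adjusted p below 0.05, 13 higher and 1 lower. That is 18.4%, against 7.05% of all genes, 13.3% of the genes brighter than the median and 23% of the 1747 other genes above the 90th percentile. For rises alone 4.66% of all genes, 8.89% of the brighter genes and 14% of those 1747 passed, and 2.4% of all genes fell. Of the 76 genes 53 had a positive fold change (69.7%, all genes 51.7%), with a median of 0.096 against 0.007 over all genes. In control livers 14 of 76 passed, all of them higher (18.4%, against 6.46% of all genes, 12% of the brighter genes and 22.4% of the 1747). For rises alone the shares were 3.29%, 6.06% and 10.9%. Here 66 of the 76 had a positive fold change (86.8%, all genes 46.8%), with a median of 0.201 against -0.013. Without the arrays that stood apart, 25 mitochondrial genes passed in LG2KO livers, 21 higher and 4 lower, where 17.5% of all genes passed, 7.74% higher and 9.78% lower. In control livers 34 then passed, all higher, where 12.1% of all genes passed, 6.33% higher. Weighting arrays by quality gave 29 calls in LG2KO livers, where 19.7% of all genes passed, and 35 in control livers, where 13.5% did. In the reported fit the shares called in either direction thus lay between those of the brighter genes and those of the 1747, and the shares that rose lay above both in each genotype.

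The calls came from both kinds of symbol. In LG2KO livers 7 of 47 Mrpl genes rose, and 6 of 29 Mrps genes rose and 1 fell. In control livers 6 of 47 Mrpl and 8 of 29 Mrps genes rose. Genes are counted here by symbol, which need not match the subunit, as Mrps18a, for example, belongs to the large subunit. Whether every Mrpl and Mrps symbol names a part of the ribosome was not checked. The median fold change was 0.083 for Mrpl and 0.11 for Mrps genes in LG2KO livers, and 0.21 and 0.20 in control livers.

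Mrps27, a pentatricopeptide repeat protein of the small subunit, gave the largest called rise of the set in each genotype. It read 8.91, 9.02 and 8.96 in LG2KO refed livers, against 8.14, 8.14 and 8.08 in LG2KO fasted livers. Control values were 8.88, 9.26 and 9.19 in refed livers, against 8.24, 8.16 and 8.20 in fasted livers. Every refed array was above every fasted array, and the gene rose by 0.84 ± 0.11 (SE) in LG2KO livers (adjusted p = 0.000438) and 0.91 ± 0.11 in control livers (adjusted p = 0.000234). Mrps6, a homologue of a bacterial small subunit protein, had 9.13, 9.49 and 9.19 in LG2KO refed livers and 8.50, 8.63 and 8.60 in LG2KO fasted livers. Its control values were 9.01, 9.36 and 9.30 refed and 8.60, 8.54 and 8.55 fasted. The groups again did not overlap, with rises of 0.69 ± 0.12 (adjusted p = 0.00393) and 0.66 ± 0.12 (adjusted p = 0.00496), and a second probe set of the gene gave 0.56 and 0.62.

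The Mrps18 paralogues, which descend from a single bacterial protein, did not all pass. Mrps18b, which sits in the small subunit, read 10.59, 10.77 and 10.72 in LG2KO refed livers against 10.07, 10.21 and 10.18 in LG2KO fasted livers, and rose by 0.54 ± 0.09 (adjusted p = 0.00381). In controls it read 10.60, 10.83 and 10.93 refed against 10.15, 10.15 and 10.20 fasted, and rose by 0.62 ± 0.09 (adjusted p = 0.00149). All refed arrays were higher than all fasted ones. Mrps18a read 10.84, 10.78 and 10.82 in LG2KO refed livers against 10.29, 10.17 and 10.21 in LG2KO fasted livers, a rise of 0.59 ± 0.10 (adjusted p = 0.00497). Its control values were 10.21, 10.65 and 10.61 refed against 10.05, 10.12 and 10.08 fasted, a rise of 0.40 ± 0.10 (adjusted p = 0.0373). Control refed replicate 1 was the lowest of the refed arrays and still above the fasted ones. Mrps18c, the third of them, was at -0.12 ± 0.18 in LG2KO livers and 0.25 ± 0.18 in control livers and did not pass (adjusted p = 0.849 and 0.584).

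Mrpl22, whose bacterial counterpart lines the exit tunnel of the large subunit, was even within groups. It had 10.70, 10.80 and 10.75 in LG2KO refed livers against 10.35, 10.32 and 10.20 in LG2KO fasted livers, a rise of 0.46 ± 0.07 (adjusted p = 0.00204). Control livers had 10.92, 11.01 and 10.97 refed against 10.33, 10.25 and 10.38 fasted, a rise of 0.65 ± 0.07 (adjusted p = 0.000174). No refed array overlapped a fasted one, and the 3 LG2KO refed arrays all lay below the 3 control refed arrays. Mrpl36, a small zinc-binding protein of the large subunit, rose by 0.43 ± 0.10 and 0.39 ± 0.10, and Mrps25 by 0.43 ± 0.12 and 0.44 ± 0.12, in LG2KO and control livers. Those 7 genes, Mrpl22, Mrpl36, Mrps18a, Mrps18b, Mrps25, Mrps27 and Mrps6, were called in both genotypes, 7 of the 14 calls in each. Over all genes 676 were called in both in the same direction, 52.7% of the LG2KO and 57.5% of the control calls. The genotypes share no array in these comparisons.

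Of the genes called in LG2KO livers alone, Mrpl34, a large subunit protein, read 10.96, 11.25 and 11.02 in refed against 10.37, 10.42 and 10.50 in fasted livers and rose by 0.65 ± 0.09 (adjusted p = 0.000921). In control livers it read 10.63, 10.85 and 10.84 refed against 10.49, 10.54 and 10.52 fasted, a difference of 0.26 ± 0.09 that did not pass (adjusted p = 0.136). Refed and fasted arrays do not overlap in either genotype, and the interaction term, 0.39 ± 0.13, did not pass (adjusted p = 0.867). A dimmer probe set of Mrpl34 gave 0.20 in LG2KO livers. With the mean of its probe sets the gene was at 0.42 there and did not pass (adjusted p = 0.0633). Mrpl38 had 9.40, 9.77 and 9.53 in LG2KO refed livers against 9.05, 9.02 and 9.06 in LG2KO fasted livers and rose by 0.52 ± 0.11 (adjusted p = 0.0122), with 0.24 ± 0.11 in controls. A dimmer probe set of Mrpl38 gave -0.07 in LG2KO livers, and with the mean of all its probe sets the gene was at 0.15 and did not pass. The other rises were Mrpl37, Mrpl43, Mrpl57 and Mrps34, between 0.29 and 0.40.

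Mrps9, a small subunit protein, was the gene that fell. It read 7.94, 7.81 and 7.75 in LG2KO refed livers against 8.41, 8.58 and 8.12 in LG2KO fasted livers, with no overlap, and fell by 0.53 ± 0.13 on the log2 scale (adjusted p = 0.0288). Control livers read 8.18, 7.92 and 8.02 refed against 8.33, 8.16 and 8.44 fasted, which overlap (-0.27 ± 0.13, adjusted p = 0.352). All 4 of its probe sets had negative fold changes in LG2KO livers, from -0.53 to -0.14, and with their mean the gene did not pass (adjusted p = 0.106).

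In control livers alone Mrpl19, Mrps12, Mrps16, Mrpl46, Mrpl49, Mrpl16 and Mrps14 rose. Mrpl19, a large subunit protein, read 8.37, 8.50 and 8.59 refed against 7.73, 7.70 and 8.01 fasted, a rise of 0.68 ± 0.14 (adjusted p = 0.0110). In LG2KO livers it read 8.32, 8.16 and 8.01 refed against 7.89, 8.03 and 7.60 fasted, which overlap (0.32 ± 0.14, adjusted p = 0.238). Mrps16, with a bacterial homologue of the same number, rose by 0.47 ± 0.11 in controls (adjusted p = 0.0188) and was at 0.22 ± 0.11 in LG2KO livers. Mrps12, the homologue of the bacterial decoding protein, was close to the threshold in both, with 0.54 ± 0.15 in controls (adjusted p = 0.0488) and 0.50 ± 0.15 in LG2KO livers (adjusted p = 0.0640), where it passed without the arrays that stood apart (0.59, adjusted p = 0.00556). Mrpl16 rose by 0.37 ± 0.07 in controls (adjusted p = 0.0063). Mrpl12, a stalk protein that also binds the mitochondrial RNA polymerase, passed in neither, with 0.09 ± 0.09 in LG2KO and 0.13 ± 0.09 in control livers. In controls it passed at 0.25 without the arrays that stood apart (adjusted p = 0.0266) and at 0.23 with array weights (adjusted p = 0.0363). The interaction term of none of these passed.

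**Figure D3:**
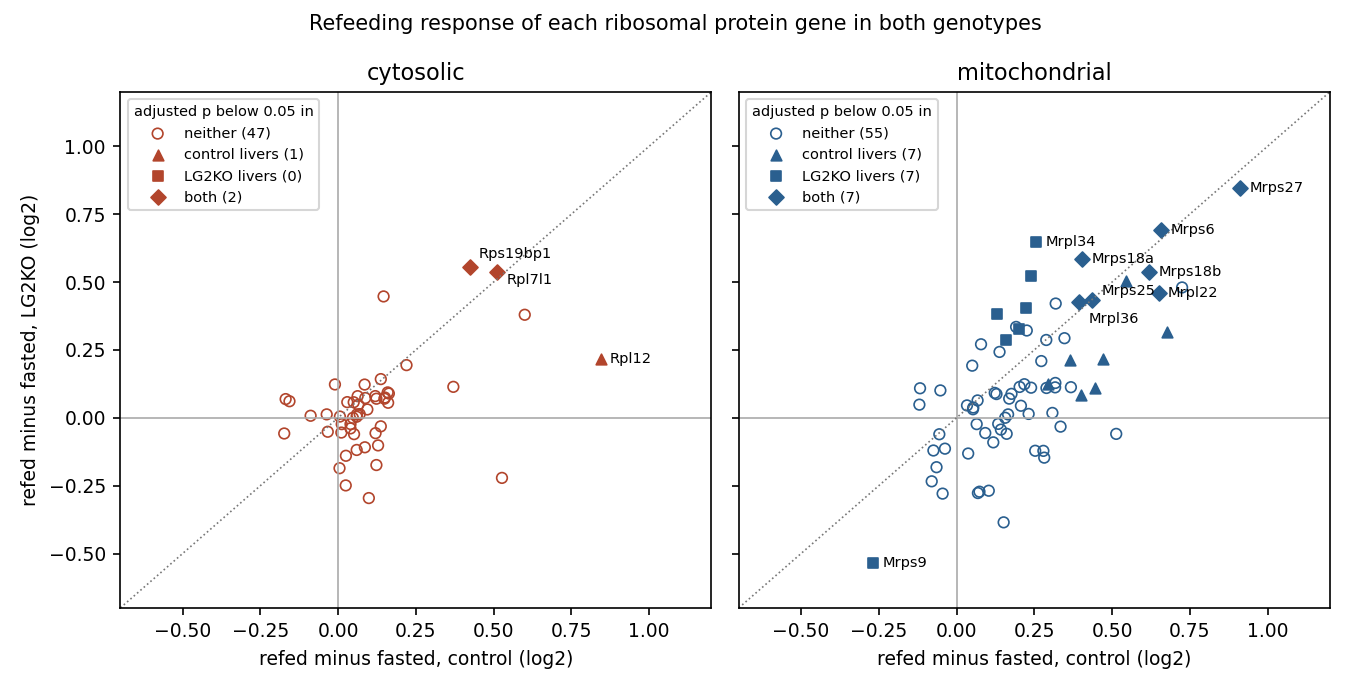
Log2 fold change of refed over fasted livers for each gene, LG2KO on the vertical and control on the horizontal axis, with filled symbols for genes that passed limma's test and a dotted line of equal change. Mitochondrial genes called in both genotypes, from Mrpl36 to Mrps27, lie along the line between 0.39 and 0.91, and most cytosolic genes crowd near the origin.

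Just inside the threshold lay Mrps25 in LG2KO livers (0.43 ± 0.12, adjusted p = 0.0424) and Mrps12 in control livers. Just outside lay Mrps11 in LG2KO livers (0.42 ± 0.12, adjusted p = 0.0509) and Mrpl10 in control livers (0.35 ± 0.10, adjusted p = 0.0702). Over 20 changes of setting, single arrays left out included, the mitochondrial genes Mrpl22, Mrps18b, Mrps27 and Mrps6 passed in every one in both genotypes. Mrps18a did so in LG2KO livers, and Mrpl16 in control livers. Of the cytosolic calls described below, Rpl12 passed in 20 of 20 settings in control livers, and Rps19bp1 in 20 of 20 in LG2KO livers and 14 of 20 in control livers. Among the calls lost most often, Mrps25 passed in 11 of 20 settings in LG2KO livers and in 8 of 20 in control livers, and in control livers Mrps12 passed in 8, Mrpl36 and Mrps18a in 9 and Mrpl49 in 10 of 20.

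Among cytosolic genes refeeding raised 2 of 50 in LG2KO livers (4%) and 3 of 50 in control livers (6%), and none fell. In LG2KO and control livers 4.66% and 3.29% of all genes rose, and 8.89% and 6.06% of the genes brighter than the median. Of the 1747 other bright genes used above, which are no close match in level, 14% and 10.9% rose. The cytosolic shares thus lay below those of the 1747 in each genotype. None of the 43 core genes was called in LG2KO livers, where 5 had an unadjusted p below 0.05 (18.2% of all genes), and 1 was called in control livers, where 9 did (16.7% of all genes). Both genotypes shared Rps19bp1 and Rpl7l1, neither of which is among the core proteins. Rps19bp1, which binds Rps19, read 9.25, 9.47 and 9.36 in LG2KO refed livers against 8.72, 8.89 and 8.80 in LG2KO fasted livers (0.55 ± 0.11, adjusted p = 0.00783). In controls it read 8.98, 9.32 and 9.29 refed against 8.73, 8.76 and 8.82 fasted (0.42 ± 0.11, adjusted p = 0.0341). Rpl7l1, a paralogue of Rpl7, rose by 0.54 ± 0.12 in LG2KO livers (adjusted p = 0.0175) and 0.51 ± 0.12 in control livers (adjusted p = 0.0237), where Rpl7 itself was at -0.25 ± 0.12 and 0.02 ± 0.12 and did not pass, although in LG2KO livers it fell by 0.34 without the arrays that stood apart (adjusted p = 0.00804). Refed and fasted arrays of Rps19bp1 and Rpl7l1 did not overlap in either genotype. When only genes above the median level were tested, 7 cytosolic genes passed in control livers, where 16.2% of those genes did.

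Rpl12, a protein at the base of the stalk, was the core gene that rose in controls, with 6.91, 7.24 and 6.99 in refed against 6.11, 6.33 and 6.16 in fasted livers (0.84 ± 0.16, adjusted p = 0.00595). In LG2KO livers it read 6.87, 7.07 and 6.61 refed against 6.50, 6.90 and 6.49 fasted, which overlap (0.22 ± 0.16, adjusted p = 0.582). Its interaction term was -0.63 ± 0.22 (adjusted p = 0.902), and its single probe set was one of the dim ones. Rplp0, at 0.12 ± 0.05 in LG2KO and 0.09 ± 0.05 in control livers, Rpl13a, at 0.07 ± 0.05 and 0.15 ± 0.05, and Rpsa, at 0.19 ± 0.07 and 0.22 ± 0.07, did not pass. Rpsa passed in both genotypes with array weights (0.22, adjusted p = 0.0104, and 0.29, adjusted p = 0.00348) and without the arrays that stood apart (0.20, adjusted p = 0.0336, and 0.31, adjusted p = 0.00471). With array weights Rplp0 also passed in LG2KO livers (0.14, adjusted p = 0.0276) and Rpl13a in control livers (0.16, adjusted p = 0.0237). Although few genes passed, 43 of 50 had positive fold changes in controls, with a median of 0.077 against -0.013 for all genes, and 31 of 50 in LG2KO livers, with a median of 0.022 against 0.007. The 110 probe sets that list several symbols had medians of -0.025 in LG2KO and 0.088 in control livers, so that in LG2KO livers their median lay below 0 where that of the members lay above it. In a fit over all probe sets, 1 of the 110 was called higher in LG2KO livers and 2 in control livers, and none was called lower. In the reported fit 4.66% and 3.29% of all genes rose. The array medians of the cytosolic set varied within groups with an SD of 0.047.

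Probe sets that were not chosen gave called falls for Rpl22, Rps3 and Mrpl15, whose brightest ones did not pass. Rpl22, an RNA-binding large subunit protein, was at -0.14 ± 0.07 in LG2KO livers on its brightest probe set, while a dimmer one gave -0.91 ± 0.15, and with the mean of its probe sets it passed at -0.41 (adjusted p = 0.0109). Rps3, at the mRNA entry of the small subunit, was at 0.03 ± 0.05 in LG2KO and 0.09 ± 0.05 in control livers on its brightest probe set, at 12.80 on average. A probe set of Rps3 at 7.18 fell by 0.79 ± 0.10 (adjusted p = 0.0008) and 0.97 ± 0.10 (adjusted p = 0.000149). For Mrpl15, a large subunit protein, the brightest of 8 probe sets gave -0.02 ± 0.07 in LG2KO livers and one at 6.77 fell by 0.90 ± 0.22 (adjusted p = 0.0348), while in controls one at 6.39 rose by 0.58 ± 0.12 (adjusted p = 0.0154). Rps6, the S6 kinase substrate with a TOP start, read 7.47, 7.80 and 7.62 in LG2KO refed livers against 8.08, 7.64 and 7.84 in LG2KO fasted livers (-0.22 ± 0.17, adjusted p = 0.595). In controls it read 8.62, 8.30 and 8.23 refed against 7.57, 7.93 and 8.08 fasted, with no overlap (0.53 ± 0.17, adjusted p = 0.0881). Neither change passed, and a second probe set of Rps6, at 3.40 on average, gave -0.10 and -0.06.

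**Figure D4:**
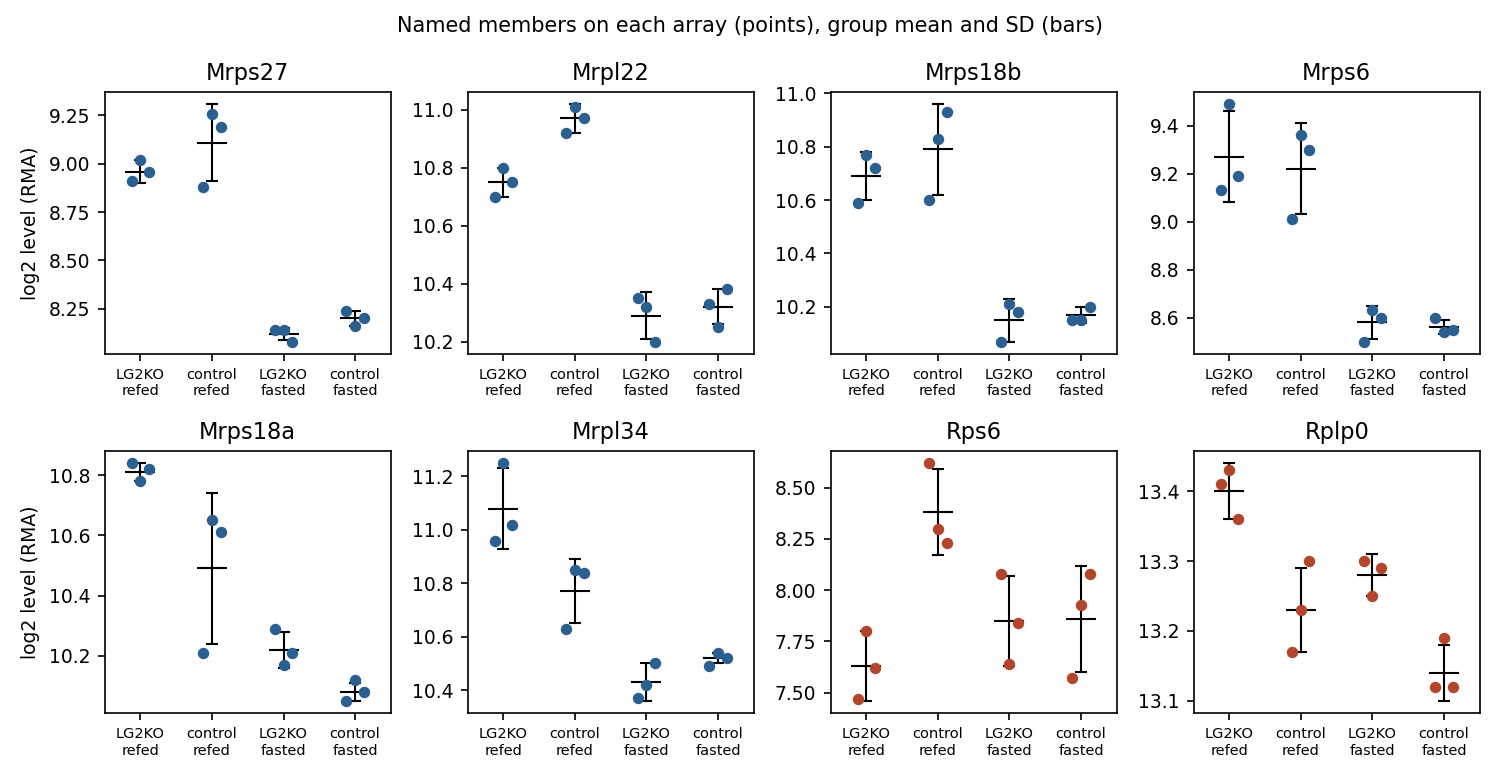
RMA level on the log2 scale of 6 mitochondrial and 2 cytosolic genes on each array (points), with the group mean and SD (bars), n = 3 pools; the vertical axes differ and do not start at 0. The 6 mitochondrial genes were picked from those that passed on refeeding. They are higher on every refed array than on fasted arrays of the same genotype, while Rplp0 stays within 13.12 to 13.43 on all arrays. Other genes of the set, such as Mrpl12, overlap.

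No member passed the test between genotypes. In refed livers 0 of 50 cytosolic and 0 of 76 mitochondrial genes passed limma's test of LG2KO against control (0.379% of all genes did), although 11 and 14 had an unadjusted p below 0.05 (9.13% of all genes). In fasted livers again 0 and 0 passed (0.396% of all genes), with 4 and 1 at an unadjusted p below 0.05 (5.2% of all genes). The fit that weights arrays by quality called 1 mitochondrial gene in refed livers (0.989% of all genes), Mrpl49, at -0.43 (adjusted p = 0.0201). Without the arrays that stood apart 0 passed in either set, in refed (0.286% of all genes) and in fasted livers (0.511%).

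Both set medians lay below 0 after refeeding. In refed livers 35 of 50 cytosolic genes and 52 of 76 mitochondrial genes had negative fold changes, with medians of -0.047 and -0.080 against 0.023 over all genes, 55.9% of which were positive. The probe sets that list several symbols had a median of -0.082. For Mrpl genes the median was -0.10, and for Mrps genes -0.038. In fasted livers the medians were 0.003 and 0.017, against -0.004 over all genes. Array medians of the mitochondrial set, given above, overlap between LG2KO refed and control refed livers, and so do those of the cytosolic set. Both overlaps come through control refed replicate 1, at -0.032 and -0.035, which stood apart. The other control refed arrays lay above every LG2KO refed array in both sets. The SD of array medians within groups was 0.062 for the mitochondrial and 0.047 for the cytosolic set, close to the size of these shifts. It was largest among control refed arrays, at 0.107 and 0.071.

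**Figure D5:**
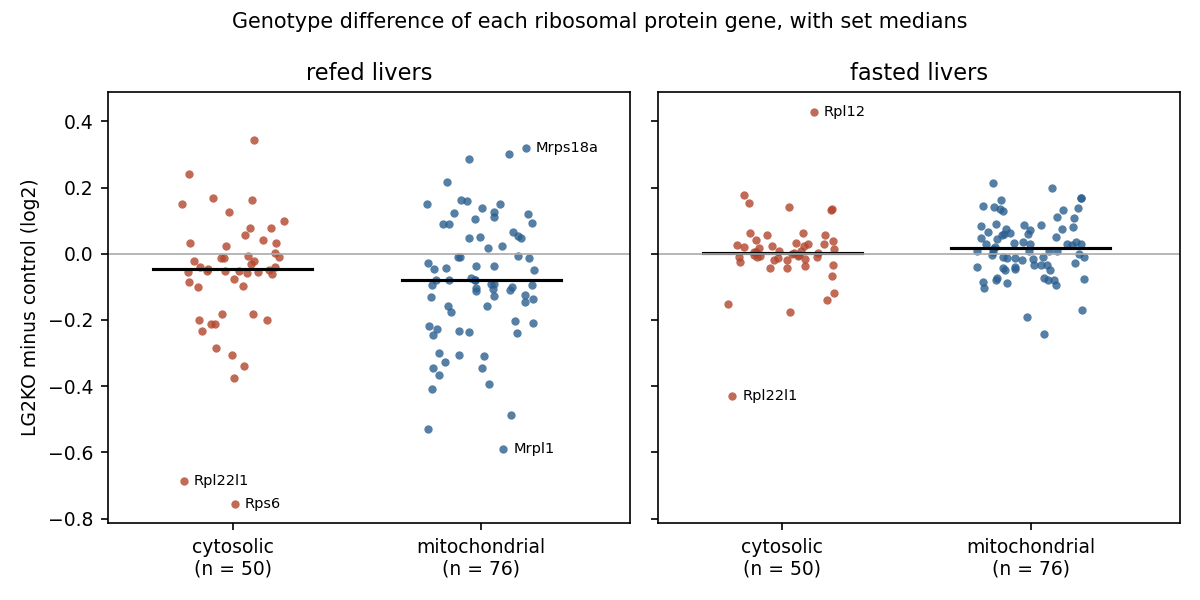
Log2 fold change of LG2KO over control livers for each gene (points), in refed and in fasted livers, with the median of each set (bar). Medians are -0.047 and -0.080 in refed livers and 0.003 and 0.017 in fasted livers for the cytosolic and mitochondrial sets, and Rps6 is the lowest gene in refed livers.

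Rps6 had the smallest p of any member in refed livers. It read 7.47, 7.80 and 7.62 in LG2KO livers against 8.62, 8.30 and 8.23 in control livers, with no overlap, a difference of -0.75 ± 0.17 that did not pass (adjusted p = 0.0940). In fasted livers its difference was -0.01 ± 0.17. Rpl11, a large subunit protein that also binds Mdm2, read 12.10, 12.16 and 12.06 in LG2KO refed livers against 12.30, 12.33 and 12.33 in control refed livers, a small gap without overlap (-0.21 ± 0.06, adjusted p = 0.199). Among mitochondrial genes Mrpl57 was higher in refed LG2KO livers, with 11.58, 11.82 and 11.65 against 11.26, 11.44 and 11.49 in controls (0.29 ± 0.08, adjusted p = 0.208). Mrpl49 was lower, with 8.82, 8.82 and 8.74 in LG2KO livers against 9.03, 9.28 and 9.17 in controls (-0.37 ± 0.10, adjusted p = 0.223). Both pairs of groups are without overlap, as were 24% of cytosolic and 26.3% of mitochondrial genes in refed livers, against 15.4% of all genes.

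Averaged over both feeding states 0 members passed (1.02% of all genes), with 9 cytosolic and 9 mitochondrial genes at an unadjusted p below 0.05 (8.86% of all genes). Rplp0 came nearest. It read 13.41, 13.43 and 13.36 in LG2KO refed livers against 13.17, 13.23 and 13.30 in control refed livers, and 13.30, 13.25 and 13.29 in LG2KO fasted livers against 13.12, 13.19 and 13.12 in control fasted livers. LG2KO arrays were higher than control arrays of the same feeding state throughout, by 0.15 ± 0.03 on average (adjusted p = 0.0566), and Rplp0 passed when only genes above the median level were tested (2.46% of those genes did). Mrps10, a small subunit protein, was at 0.16 ± 0.05 (adjusted p = 0.225) and Mrps18a at 0.23 ± 0.07 (adjusted p = 0.256). In fasted livers alone the 2 members with the smallest p were Rplp0 at 0.13 ± 0.05 and Rpl12 at 0.43 ± 0.16 in the cytosolic set, and Mrps10 at 0.17 ± 0.07 and Mrps36 at 0.21 ± 0.11 in the mitochondrial set.

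The interaction asks whether LG2KO livers respond to refeeding differently from controls. None of the 50 and 76 genes passed (0.0055% of all genes did), with 3 and 5 at an unadjusted p below 0.05 (4.73% of all genes). The median interaction was -0.056 for the cytosolic and -0.097 for the mitochondrial set, where 57 of 76 genes were negative, against 0.023 for all genes. Leaving out control refed replicate 1 moved the mitochondrial median to -0.175, and leaving out both arrays that stood apart to -0.193, with the same 0 calls. A gene called in 1 genotype alone is therefore not shown to respond differently there.

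Genes around the mitochondrial ribosome were read from lists drawn up for this purpose. Of ribosomal proteins with other symbols, 4 of 6 were measured, and Gadd45gip1, a large subunit protein also called CRIF1, rose. It read 10.92, 11.20 and 11.12 in LG2KO refed livers against 10.17, 10.15 and 10.18 in LG2KO fasted livers (0.91 ± 0.10, adjusted p = 0.000237). In controls it read 10.57, 10.87 and 10.93 refed against 10.18, 10.28 and 10.36 fasted (0.51 ± 0.10, adjusted p = 0.0102). Refed and fasted arrays did not overlap in either genotype. Of 11 translation factors Tsfm, the nucleotide exchange factor of mitochondrial elongation factor Tu, was called and rose by 0.44 ± 0.11 in LG2KO and 0.56 ± 0.11 in control livers. Over all genes 4.66% rose in LG2KO and 3.29% in control livers. All 11 factors had negative genotype differences in refed livers, where most of all genes had positive ones, with a median of -0.16, and none passed. These 11 values come from the same arrays, control refed replicate 1 included, and are not separate observations of the genotype.

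Of 18 ribosome assembly factors 4 rose in LG2KO livers, where 4.66% of all genes did. Mettl17, which acts on the small subunit, rose by 0.50 ± 0.09, the GTPases Noa1 and Mtg2 by 0.54 ± 0.11 and 0.41 ± 0.11, and the rRNA methyltransferase Mrm2 by 0.66 ± 0.17. In controls 0 of 18 passed (6.46% of all genes did), with 6 at an unadjusted p below 0.05, where 16.7% of all genes were, and no interaction term of the list passed. Mitochondrial aminoacyl-tRNA synthetases, which charge the tRNAs used by these ribosomes, gave 4 of 16 rises in LG2KO livers and 2 of 16 in control livers, against 4.66% and 3.29% of all genes. Cars2 and Tars2, for cysteine and threonine, rose by 0.88 ± 0.12 and 0.58 ± 0.12 in LG2KO livers and by 0.57 ± 0.12 and 0.56 ± 0.12 in controls. Ears2 and Sars2 rose by 0.81 ± 0.15 and 0.62 ± 0.14 in LG2KO livers.

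Some regulators fell on refeeding, where 2.4% of all genes fell in LG2KO livers and 3.17% in control livers. Of 13 genes that control mitochondrial biogenesis, Ppargc1b, a coactivator of nuclear respiratory factors, read 7.68, 7.76 and 7.34 in LG2KO refed livers against 8.43, 8.44 and 8.14 in LG2KO fasted livers and fell by 0.74 ± 0.13 (adjusted p = 0.00392). In controls it read 7.64, 7.54 and 7.51 refed against 8.65, 8.56 and 8.51 fasted and fell by 1.01 ± 0.13 (adjusted p = 0.000412). Refed arrays lay below fasted arrays throughout. In LG2KO livers Ppargc1a, its fasting-induced relative, fell by 0.58 ± 0.13, and Myc, an activator of ribosome genes, fell by 1.41 ± 0.26. Of 17 genes of mTORC1 signalling and TOP mRNA control, 2 rose and 2 fell in LG2KO livers (4.66% and 2.4% of all genes), and 2 fell in controls (3.17% of all genes). Eif4ebp1, a translation repressor that mTORC1 inactivates, fell by 0.51 ± 0.14 in LG2KO and 0.78 ± 0.14 in control livers. Eif4ebp2, its relative, fell by 0.42 ± 0.10 in controls. In LG2KO livers Rptor and Akt1s1, subunits of mTORC1, rose by 0.45 ± 0.11 and 0.40 ± 0.11, and Mtor, its kinase, fell by 0.36 ± 0.10. Fau, whose product is processed to a cytosolic small subunit protein, was at -0.03 ± 0.06 in LG2KO livers and -0.003 in control livers and did not pass.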

How the data were processed

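Each array gave 1 value per probe set on the log2 scale, as the authors deposited it after RMA, per the submitters' processing notes. Its software, version and build were not given in the sources used here. RMA brings arrays to a common distribution, so a fold change is relative to the bulk of probe sets. Precision is limited by the number of arrays. Of 45101 probe sets 34958 had 1 symbol in the platform annotation, 932 several and 9211 were not listed there. The probe set with the highest mean represented each of 18194 genes, and 66 members had several of the 262 member probe sets. All 126 members matched RefSeq by Entrez number and 0 symbols changed.

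Groups came from titles, genotype and diet labels. limma 3.58.1 in R 4.3.3 fitted 1 mean per group to all 12 arrays (lmFit, eBayes with an intensity trend, 8 residual degrees of freedom). All tests were two-sided, with Benjamini-Hochberg adjustment over all 18194 genes per comparison and a threshold of 0.05. Errors are SE for fold changes. The fit was tested on simulated data. Figures used matplotlib 3.10.9. Named genes are, per comparison and set, up to 6 largest rises and 6 largest falls that passed without overlap, or else the 2 smallest p, besides standing members, paralogue pairs, extremes of level and called list genes. Genes described for their range, for probe sets that disagree or for lying close to the threshold were chosen after their values were seen. Members and lists were chosen with earlier results of these data known. Same-numbered arrays showed no general pairing: of 18 pairs 5 deviated together with r over 0.1 (-0.419 to 0.714, median -0.075). Of 36 pairs with other numbers 12 did so (-0.753 to 0.46, median 0.038). The highest values, 0.714 and 0.712, were those of same-numbered pairs. Alternatives were other priors, array weights, a replicate block, a filter on dim genes, centring, averaged probe sets, arrays left out and, added after seeing the data, every single-symbol probe set, the several-symbol probe sets and cytosolic members above the 95th percentile.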

Additional observations from a re-analysis of the deposited data

How the results depend on the processing

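The number of called genes moved with the arrays used, while the set medians on refeeding stayed above 0 in both genotypes in all settings run on members. Refeeding in LG2KO livers called 2 cytosolic and 14 mitochondrial genes in the reported fit, 8 and 29 with array weights, and 6 and 25 without the arrays that stood apart. In control livers it called 3 and 14, 10 and 35 with array weights, and 8 and 34 without those arrays. Leaving out 1 array at a time gave 1 to 3 cytosolic and 6 to 23 mitochondrial calls in LG2KO livers, and 1 to 8 and 5 to 28 in control livers; the highest mitochondrial counts came without control refed replicate 1, and the cause was not tested. Mitochondrial counts of 6 to 8 in LG2KO livers came without LG2KO refed replicate 2 or 3 or LG2KO fasted replicate 1 or 2. Counts of 5 to 7 in control livers came without control refed replicate 2 or 3 or any control fasted array, and counts of 9 without LG2KO refed replicate 2 or 3. Such fits have fewer arrays per group. Cytosolic genes above the 95th percentile gave 0 calls in either genotype. Testing only genes above the median level gave 7 cytosolic calls on refeeding in controls and 1 for genotype averaged over feeding, as did array weights, and leaving out 1 array gave 0 to 1 there. Array weights called 1 mitochondrial gene for genotype in refed livers. The median mitochondrial interaction of -0.097 was -0.184 with array weights, -0.193 without the arrays that stood apart, and -0.175 to -0.077 with 1 array left out. With the replicate number as a block, 2 cytosolic and 15 mitochondrial genes were called on refeeding in LG2KO livers and 3 and 12 in control livers, and Mrps18a and Mrpl49 no longer passed in controls; no genotype or interaction call appeared. Over 160 single gene results, 3102 of 3182 alternative values kept the call or the lack of one, 52 lost the call and 28 gained it. A change of sign in a result that passed in neither fit was counted as kept, so this says nothing on the direction of uncalled results. The fasted genotype medians changed sign with single arrays left out, between -0.014 and 0.015 for the cytosolic and between -0.003 and 0.045 for the mitochondrial set. Background is unknown, so nothing can be read from the lack of calls among dim genes such as Rps16 and Rpl3l.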
